A study of Mus musculus with 6 samples.

Results

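The serpin genes described here are 8 genes of the serine protease inhibitor superfamily: Serpina3f and Serpina3g of clade A, Serpinb1a, Serpinb6a, Serpinb6b, Serpinb8 and Serpinb9 of clade B, and Serping1, which by its name belongs to clade G. They were picked by symbol from 24346 gene symbols, with earlier results of this genotype comparison in view, so their differences between the genotypes are given as a description and carry no test. The files hold 56 further serpin symbols. RNA from follicular B cells of the spleen, its recirculating mature B cells, was sequenced in 3 G9gl libraries and 3 WT libraries. G9gl mice, homozygous for what the labels call G9gl HL, are knock-in mice whose B cells carry an antibody to double-stranded DNA, in the germline form that preceded the one found in a person with lupus, and WT mice were B6 controls. The comparison was made to characterise G9gl B cells, which the study describes as anergic. All mice were 8 weeks old, and the sort kept B220+ CD93- cells with low CD21 and high CD23. No label says whether the 3 libraries of a genotype came from separate or pooled animals, and the p-values below are thus based on a spread among libraries that may be technical.

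A serpin folds into a metastable protein with an exposed loop that a protease takes as its substrate, and cleavage of that loop springs a change of shape that locks the protease in an inactive complex. Most clade A serpins are secreted plasma proteins, while clade B serpins, also called ov-serpins, act inside cells, where they guard the cytosol against proteases that leak from lysosomes or cytotoxic granules. Mouse clade A also holds a large cluster of Serpina3 copies that matches a single human gene, and among them Serpina3g, also known as Spi2A, acts inside cells and blocks lysosomal cysteine cathepsins.

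The 250 bases before the RefSeq start of 5 genes are shown here (build GRCm38.p6, 5′ to 3′ on the strand of the gene), because Serpina3f and Serpina3g, and likewise Serpinb6b and Serpinb9, are neighbours that were both higher in G9gl, while Serpinb6a is a near copy of Serpinb6b with other values. Capitals mark matches to any of 5 motifs. These were the STAT motif GAS (TTCNNNGAA), the interferon response motif ISRE (GAAANNGAAA), the AP-1 motif (TGANTCA), the EGR motif (GCGNGGGCG) and an NF-kB motif, each sought on both strands.
Serpina3f, chr12:104214294-104214543, plus strand: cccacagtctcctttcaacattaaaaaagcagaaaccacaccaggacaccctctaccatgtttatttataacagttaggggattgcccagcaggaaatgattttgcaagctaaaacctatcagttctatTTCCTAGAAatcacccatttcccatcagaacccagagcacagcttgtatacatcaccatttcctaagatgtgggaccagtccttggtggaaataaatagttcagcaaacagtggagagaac
Serpina3g, chr12:104235897-104236146, plus strand: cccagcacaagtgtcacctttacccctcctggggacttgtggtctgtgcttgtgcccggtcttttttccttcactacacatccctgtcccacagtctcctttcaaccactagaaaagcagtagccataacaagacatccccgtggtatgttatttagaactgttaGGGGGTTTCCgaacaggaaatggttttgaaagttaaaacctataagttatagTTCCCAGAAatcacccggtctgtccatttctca
Serpinb6b, chr13:32965011-32965260, plus strand: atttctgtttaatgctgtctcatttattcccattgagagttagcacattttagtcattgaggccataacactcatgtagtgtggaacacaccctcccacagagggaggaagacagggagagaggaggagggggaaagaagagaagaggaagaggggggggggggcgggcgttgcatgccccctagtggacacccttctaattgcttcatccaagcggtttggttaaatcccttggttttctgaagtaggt
Serpinb9, chr13:33004291-33004540, plus strand: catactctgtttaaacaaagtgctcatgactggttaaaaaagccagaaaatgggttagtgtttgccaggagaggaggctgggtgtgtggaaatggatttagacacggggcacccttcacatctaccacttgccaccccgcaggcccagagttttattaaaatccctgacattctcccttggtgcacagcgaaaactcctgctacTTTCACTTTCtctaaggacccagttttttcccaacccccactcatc
Serpinb6a, chr13:34002795-34003044, minus strand: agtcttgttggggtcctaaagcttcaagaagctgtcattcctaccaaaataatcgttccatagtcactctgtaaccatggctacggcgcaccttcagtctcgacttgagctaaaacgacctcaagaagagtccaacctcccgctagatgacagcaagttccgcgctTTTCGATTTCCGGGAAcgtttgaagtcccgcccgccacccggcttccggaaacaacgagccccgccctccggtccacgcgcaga
Both Serpina3 windows held 1 GAS match, at 121 to 113 bases before the start of Serpina3f and at 33 to 25 bases before that of Serpina3g. The Serpina3g window alone of these 5 held an NF-kB match, at 85 to 76 bases before its start. A stretch of 147 aligned positions was 81.0% identical between the Serpina3f and Serpina3g windows and included both GAS matches and the NF-kB match of Serpina3g, whose counterpart in Serpina3f did not match the motif. The Serpinb9 window held 1 ISRE match, on the opposite strand, at 46 to 37 bases before its start, and the Serpinb6b window held none of the 5 motifs. The Serpinb6a window held an ISRE match on the opposite strand and a GAS match that overlap each other, at 84 to 75 and 77 to 69 bases before its start. Among the first promoters of 27025 genes, 7.18% held the GAS motif, 3.04% the ISRE, 6.87% the AP-1 motif, 4.65% the EGR motif and 7.01% the NF-kB motif. Such a match is a description of letters and not a measured binding site. For Serpinb9 and Serpinb6b the RefSeq start used here lies inside the span given by GENCODE for the gene. For Serpina3g it lies before that span, as the window ends at 104236146 and GENCODE starts the gene at 104236245. Counted from the GENCODE start, the Serpina3g matches lie further away, while for Serpina3f both starts are the same. The different GAS distances of the pair thus depend on the start that is used. RefSeq lists 2 starts each for Serpina3f and Serpinb6a, of which the first is shown. Before the second, Serpina3f held the same GAS match, at 210 to 202 bases, and Serpinb6a none of the 5 motifs.

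Values are FPKM, that is fragments per kilobase of transcript and per 1000000 mapped fragments, so that levels can be set side by side between genes. Depth, estimated from the steps between low values, was 10400000 to 12440000 fragments per library in G9gl and 10520000 to 11320000 in WT. For a 2 kb transcript, 1 FPKM then stands for 18.2 to 21.3 fragments, which bears on counting error only. Serpinb1a was the most abundant serpin gene in every library, and Serpina3g came next. In G9gl the order of the mean levels was Serpinb1a, Serpina3g, Serpina3f, Serpinb6a, Serpinb9 and Serpinb6b. In WT it was Serpinb1a, Serpina3g, Serpinb6a, Serpina3f, Serpinb9 and Serpinb6b, so Serpina3f stood above Serpinb6a in G9gl and below it in WT. The libraries of Serpinb9 and Serpinb6b overlapped within each genotype, and all other neighbours in these orders were separated in all 3 libraries of the genotype.

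**Figure D1:**
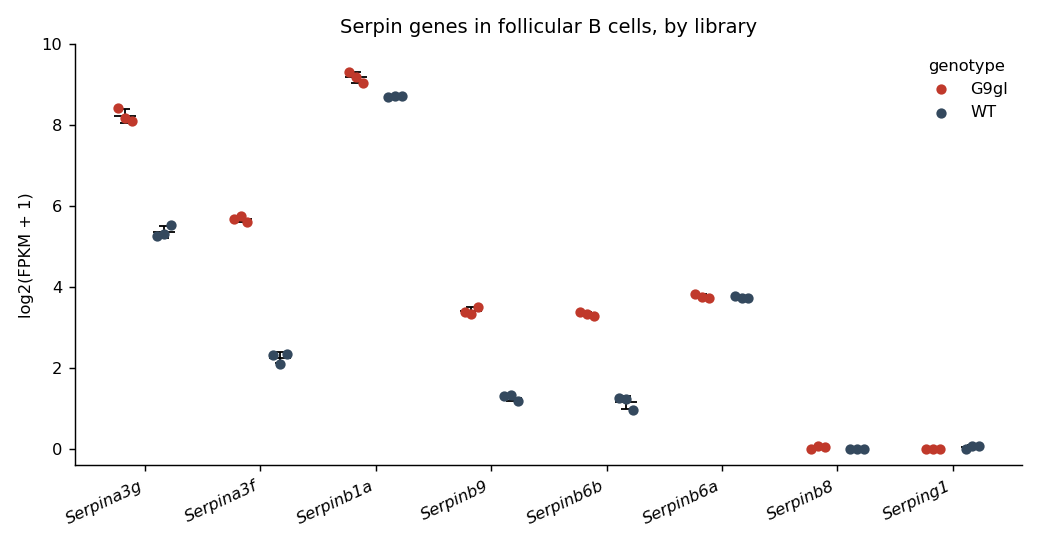
Level of each of the 8 serpin genes as log2(FPKM + 1) in every library, with G9gl left of WT for each gene; points are libraries, and black bars give the mean and SD (n = 3). All 3 G9gl libraries lie above all 3 WT libraries for Serpina3g, Serpina3f, Serpinb1a, Serpinb9 and Serpinb6b, the groups overlap for Serpinb6a, and Serpinb8 and Serping1 lie at or near 0.

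Serpina3g (ENSMUSG00000041481.16, chromosome 12, 104236245 to 104241939, plus strand, mm10), the cathepsin inhibitor gene described above, had 339.8, 286.5 and 271.3 FPKM in the G9gl libraries, against 37.5, 38.4 and 45.4 FPKM in the WT libraries. The groups did not overlap, and the lowest G9gl library lay far above the highest WT library. The means were 299 ± 35.9 FPKM in G9gl and 40.4 ± 4.33 FPKM in WT (SD, n = 3 each). The log2 fold change on log2(FPKM + 1) was 2.86 ± 0.10 (SE), rank 10 of 10122 tested genes. Its level was above that of 97.1% of tested genes in G9gl, against 76.2% in WT.

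Serpina3f (ENSMUSG00000066363.12, chromosome 12, 104214544 to 104221129, plus strand) starts 21.7 kb before Serpina3g and is one of its tandem copies. It had 50.3, 52.6 and 47.8 FPKM in the G9gl libraries, against 4.04, 3.31 and 4.06 FPKM in the WT libraries. Again no G9gl library overlapped a WT library, and the G9gl libraries were close together. The means were 50.2 ± 2.40 FPKM in G9gl and 3.81 ± 0.43 FPKM in WT (SD, n = 3 each). Its log2 fold change of 3.42 ± 0.09 (SE) ranked 5 among all tested genes.

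Serpina3f differed more than Serpina3g relative to its WT level, so the makeup of the pair was not the same in the genotypes. There were 5.45 to 6.75 FPKM of Serpina3g for each FPKM of Serpina3f in the G9gl libraries, against 9.27 to 11.6 in the WT libraries. Because these genes are copies, fragments could be split between them. Their longest coding transcripts aligned over 1756 positions with 88.9% identity. Of all stretches of 50 bases in the Serpina3g transcript, 16.0% also occurred in another annotated gene, with Serpina3h sharing the most at 8.67%, and for Serpina3f the share was 10.7%, with Serpina3g sharing the most at 6.0%. Most such stretches occurred in no other annotated gene, but how the authors' pipeline placed fragments with several matches is not given in the sources used here. The sum of both genes taken as 1 feature had a log2 fold change of 2.95. None of the other 9 Serpina3 symbols exceeded 0.0962 FPKM in any library.

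Serpinb9 (ENSMUSG00000045827.10, chromosome 13, 33003250 to 33017957, plus strand) encodes the inhibitor of granzyme B, with which cytotoxic lymphocytes and other cells protect their own cytosol. It had 9.49, 9.14 and 10.5 FPKM in the G9gl libraries, against 1.47, 1.52 and 1.27 FPKM in the WT libraries, with no overlap between the groups. The means were 9.71 ± 0.70 FPKM in G9gl and 1.42 ± 0.13 FPKM in WT (SD, n = 3 each). The log2 fold change was 2.15 ± 0.11 (SE), a 4.42-fold difference on log2(FPKM + 1), which understates low genes, and the ratio of the mean FPKM was 6.84.

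Serpinb6b (ENSMUSG00000042842.11, chromosome 13, 32965209 to 32979067, plus strand) lies beside Serpinb9, with 38.0 kb between their starts. It had 9.54, 9.11 and 8.84 FPKM in the G9gl libraries, against 1.38, 1.37 and 0.956 FPKM in the WT libraries. The groups were again apart. Within G9gl, replicate 3 was the lowest library for this gene and the highest for Serpinb9. Its means were 9.16 ± 0.36 FPKM in G9gl and 1.24 ± 0.24 FPKM in WT (SD, n = 3 each). The log2 fold change was 2.19 ± 0.12 (SE), and the ratio of the mean FPKM was 7.40. For each FPKM of Serpinb6b there was 0.995 to 1.19 FPKM of Serpinb9 in G9gl, against 1.06 to 1.33 FPKM in WT, ranges that overlap. The WT values of Serpinb6b rest on an estimated 19.3 to 30.4 fragments and those of Serpinb9 on 42.9 to 53.6, if all came from the longest coding transcript, against 179 to 216 and 350.0 to 362 in G9gl.

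Serpinb6a (ENSMUSG00000060147.15, chromosome 13, 33917918 to 34002794, minus strand) encodes an intracellular inhibitor whose human counterpart blocks cathepsin G. Its level barely differed, with 13.3, 12.5 and 12.4 FPKM in the G9gl libraries, against 12.8, 12.3 and 12.3 FPKM in the WT libraries. The groups overlapped. The log2 fold change was 0.03 ± 0.08 (SE), and it was -0.10 when each library was rescaled to the same sum, a scaling under which the median of all tested genes was -0.12. Serpinb6a and Serpinb6b aligned over 1173 transcript positions with 86.0% identity, yet 2.96% and 3.12% of their stretches of 50 bases occurred in another gene. For each FPKM of Serpinb6a there was 0.714 to 0.727 FPKM of Serpinb6b in G9gl, against 0.0776 to 0.112 FPKM in WT. Summed as 1 feature the pair had a log2 fold change of 0.64.

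Serpinb1a (ENSMUSG00000044734.16, chromosome 13, 32842092 to 32851185, minus strand) encodes an inhibitor of neutrophil elastase and cathepsin G and is abundant in myeloid cells. In the follicular B cell libraries it had 630.5, 578 and 528 FPKM in G9gl, against 415, 418 and 417 FPKM in WT. The WT libraries were nearly equal, the G9gl libraries were spread more widely, and the groups did not overlap. The means were 579 ± 51.1 FPKM in G9gl and 417 ± 1.92 FPKM in WT (SD, n = 3 each), and the log2 fold change was 0.47 ± 0.06 (SE). It was 0.28 after quantile normalization and 0.34 when each library was rescaled to the same sum. Its level was above that of 98.5% of tested genes in G9gl and of 98.2% in WT. In FPKM the difference between the means, 162 for Serpinb1a, was smaller than the 259 for Serpina3g, although Serpinb1a had the higher level in both genotypes.

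Serpinb8 (ENSMUSG00000026315.13, chromosome 1, 107590006 to 107610484, plus strand), whose human counterpart can inhibit furin, had 0, 0.0576 and 0.0337 FPKM in the G9gl libraries and was listed at 0 in all 3 WT libraries. Serping1 (ENSMUSG00000023224.12, chromosome 2, 84765387 to 84775444, minus strand), the gene of the C1 inhibitor of the complement and contact systems, was listed at 0 in all 3 G9gl libraries and had 0, 0.0587 and 0.0613 FPKM in the WT libraries. These values correspond to an estimated 3.07 fragments at most for Serpinb8 and 0.965 for Serping1. Neither gene reached the filter of 1 FPKM in 3 libraries, neither gets a fold change, and a difference was not detectable at this depth. A level of 3 fragments would be 0.0562 to 0.0665 FPKM for Serpinb8 and 0.163 to 0.19 FPKM for Serping1.

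The summed FPKM of the 8 genes was 960.2 ± 87.5 in G9gl and 476 ± 4.97 in WT (SD, n = 3 each). They made up 98.2% of the FPKM of all serpin symbols in G9gl and 96.3% in WT. Serpinb1a held 59.9 to 61.0% of the sum of the 8 in the G9gl libraries, against 86.7 to 88.0% in the WT libraries. Serpina3g held 30.2 to 32.3% in G9gl, against 7.94 to 9.43% in WT, and Serpina3f 4.78 to 5.55%, against 0.696 to 0.857%. Serpinb1a thus made up most of the serpin signal in both genotypes, and that of the G9gl libraries was more evenly divided between clade B and clade A.

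**Figure D2:**
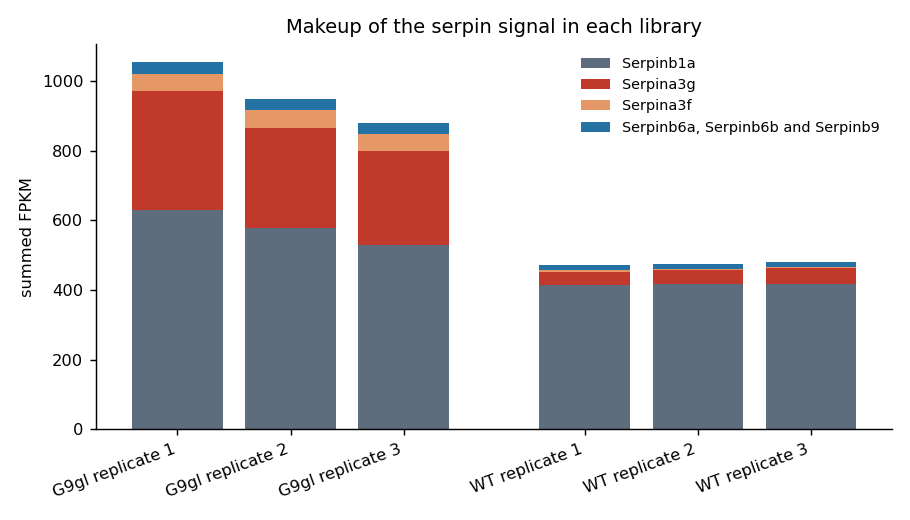
Summed FPKM of the 6 serpin genes of the 8 that were tested, in each library (bars from 0, the 3 G9gl libraries left of the 3 WT libraries), divided by gene. The sums run from 879 to 1053 FPKM in G9gl and from 472 to 481.5 FPKM in WT, and Serpina3g fills 30.2 to 32.3% of the G9gl sums against 7.94 to 9.43% of the WT sums.

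In a limma fit over the 10122 genes that reached 1 FPKM in 3 or more libraries, a gene was called at a Benjamini-Hochberg adjusted p under 0.05. Of the 8 serpin genes, 6 were tested, and 5 of these (all but Serpinb6a) were called higher in G9gl. Of all tested genes 11.8% were called higher and 11.6% lower. All 3 G9gl libraries lay above all 3 WT libraries for the same 5 genes, as for 20.3% of all tested genes, while 0 of the 6 had all G9gl libraries below all WT libraries, as 20.5% of tested genes did. Groups without overlap in either direction made up 40.8% of tested genes. Since this contrast was known when the genes were picked, nothing is read from these counts. The median log2 fold change of the 6 tested genes was 2.17, beside -0.0022 for all tested genes.

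**Figure D3:**
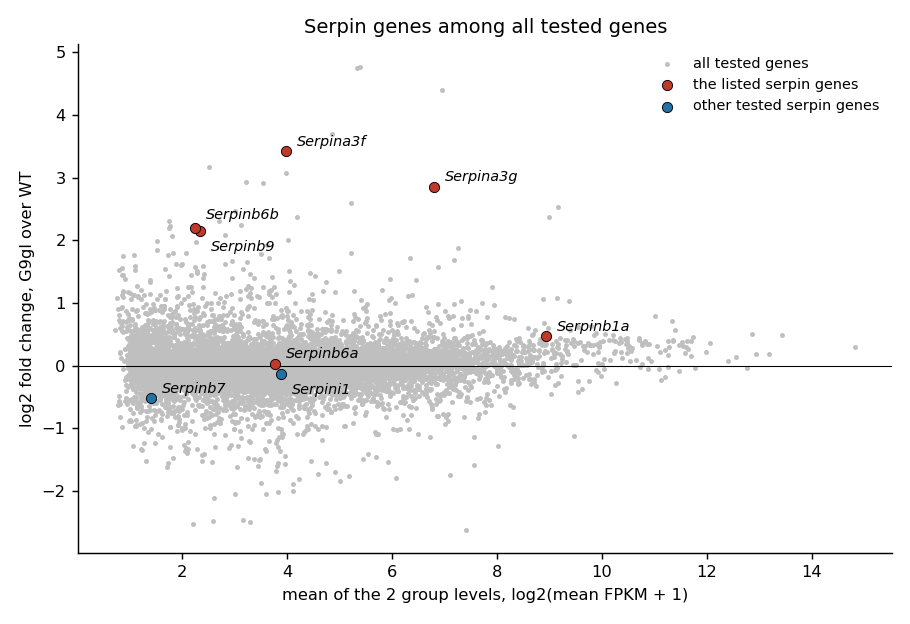
Log2 fold change of G9gl over WT, on log2(FPKM + 1), against the mean level of all 10122 tested genes (grey), with the 6 tested genes of the 8 in red and Serpinb7 and Serpini1 in blue. Serpina3f at 3.42 and Serpina3g at 2.86 stand above nearly all genes of their level, and Serpinb6a at 0.03 lies in the middle.

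Of the 56 other serpin symbols, 20 were listed at 0 in all 6 libraries and 34 stayed under 1 FPKM in every library, with a highest value of 0.612 FPKM. Among them were the copies nearest to the clade B genes described above. The 6 further Serpinb9 copies reached at most 0.395 FPKM, the 3 further Serpinb6 copies 0.153 FPKM and the 2 further Serpinb1 copies 0.548 FPKM. Only Serpinb7 and Serpini1 were tested, and neither passed. Serpini1, the neuroserpin gene, had 13.1 ± 2.05 FPKM in G9gl and 14.5 ± 2.11 FPKM in WT (SD, n = 3 each; log2 fold change -0.14, limma adjusted p 0.49). Serpinb7 had 1.55, 0.700 and 1.41 FPKM in G9gl, against 1.85, 2.03 and 2.58 FPKM in WT (log2 fold change -0.52, limma adjusted p 0.070). Of these, 1 had an unadjusted p under 0.05. Without G9gl replicate 1, or with each library rescaled to the same sum, Serpinb7 was called lower. Without a filter on low values Serpinb1c and Serpinb9f were called higher, at no more than 0.548 FPKM and 0.395 FPKM in any library. Serpinb1c is the gene that shares the most stretches of 50 bases with Serpinb1a.

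Proteases, complement genes and other inhibitors were read from lists that were not limited to proteases or to targets of serpins. Like the serpin genes, the lists were chosen with earlier results of these data known, so their counts are no independent evidence. Of 15 cathepsin genes, with legumain among them, 11 were tested, 9 rose, 0 fell and 2 did not pass in the limma fit, where 11.8% of all tested genes rose (median log2 fold change 0.37, beside -0.0022 for all tested genes, and 0 fell at an unadjusted p under 0.05). Ctsb, the gene of the cysteine protease cathepsin B, did not pass, with 44.8 ± 2.66 FPKM in G9gl and 40.4 ± 1.20 FPKM in WT (SD, n = 3 each; limma adjusted p 0.15). Ctsl, another cysteine cathepsin gene, rose, with 3.84 ± 0.337 FPKM in G9gl and 2.25 ± 0.521 FPKM in WT (limma adjusted p 0.019), but was not called without a filter or without WT replicate 2. Ctss, which trims the class II invariant chain, rose to 876 ± 33.2 FPKM in G9gl, against 677 ± 31.9 FPKM in WT (limma adjusted p 0.0011), and was not called after quantile normalization, where 6 of the list were higher. Ctsh rose 1.34-fold, Ctso 1.57-fold, Ctsd 1.29-fold and Ctsc, which activates granule serine proteases, 1.22-fold on log2(FPKM + 1), with limma adjusted p from 5.3e-04 to 0.0028. Ctse, which encodes an aspartic cathepsin, had the highest log2 fold change of the list, 4.75 ± 0.19 (SE, limma adjusted p 7.7e-07). Ctsa and Ctsz also rose, but neither was called with each library rescaled to the same sum (7 of the list higher) or after quantile normalization. The same held with the replicate block, without a filter, and without WT replicate 1. Ctsa was also not called without WT replicate 2 or 3, nor Ctsz without G9gl replicate 2.

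Granule proteases, among them known targets of Serpinb9 and Serpinb1a, were mostly under the filter. Of 17 genes of this list only Prf1, which encodes the pore protein perforin and no protease, was tested. It rose, with 6.44 ± 1.57 FPKM in G9gl and 1.73 ± 0.535 FPKM in WT (SD, n = 3 each; limma adjusted p 6.4e-04). The genes of granzyme B, neutrophil elastase, proteinase 3 and cathepsin G did not reach the filter.

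Of 25 complement and contact genes, the field of Serping1, 6 were tested. Here 5 rose (C1qa, C1qb, C1qc, Cfp and Cr1l) and 1, Cd55, fell, where 11.8% of all tested genes rose and 11.6% fell. Cd55 had 188 ± 12.2 FPKM in G9gl, against 292 ± 16.3 FPKM in WT (SD, n = 3 each; limma adjusted p 1.6e-04). C1qb, a chain of the first complement component, had 9.05, 7.78 and 7.49 FPKM in G9gl, against 2.97, 1.83 and 1.44 FPKM in WT. Cfp, the properdin gene, rose 1.43-fold (limma adjusted p 0.0073). Cr1l was not called with each library rescaled to the same sum or without WT replicate 2, and C1qa was not called without a filter, without G9gl replicate 2 or without G9gl replicate 3. C1ra and C1s1, the genes of the proteases that the C1 inhibitor blocks, did not reach the filter.

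Among other protease inhibitor genes 26 of the list were in the files and 8 were tested, of which 5 rose, 0 fell and 3 did not pass by limma, with 1 lower at an unadjusted p under 0.05. Of all tested genes 11.8% rose and 11.6% fell. Wfdc17, a gene of the whey acidic protein family, had 334.6, 154 and 137 FPKM in G9gl, against 61.3, 61.3 and 69.4 FPKM in WT, with G9gl replicate 1 well above the others. Its log2 fold change was 1.57 ± 0.27 (SE, limma adjusted p 0.0030) and 1.17 without that library. Slpi, the secretory leukocyte protease inhibitor gene, rose to 5.31 ± 0.561 FPKM in G9gl, against 1.93 ± 0.557 FPKM in WT (SD, n = 3 each; limma adjusted p 8.4e-04). Timp2, a metalloprotease inhibitor gene, Spint2, a Kunitz-type inhibitor gene, and Cstb, the gene of the cysteine protease inhibitor cystatin B, rose 1.87-fold, 1.28-fold and 1.21-fold, and Spint2 and Cstb were not called with each library rescaled to the same sum. Timp2 reached the filter through the G9gl libraries alone (1.93, 1.61 and 1.94 FPKM in G9gl, against 0.554, 0.354 and 0.650 FPKM in WT), so that its place in this count depends on the filter, and it was no longer tested without any 1 of them. Cst3, the cystatin C gene, did not pass, with 295 ± 12.8 FPKM in G9gl and 342 ± 31.2 FPKM in WT (limma adjusted p 0.057). It was called lower after quantile normalization, with each library rescaled to the same sum, and without WT replicate 2.

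**Figure D4:**
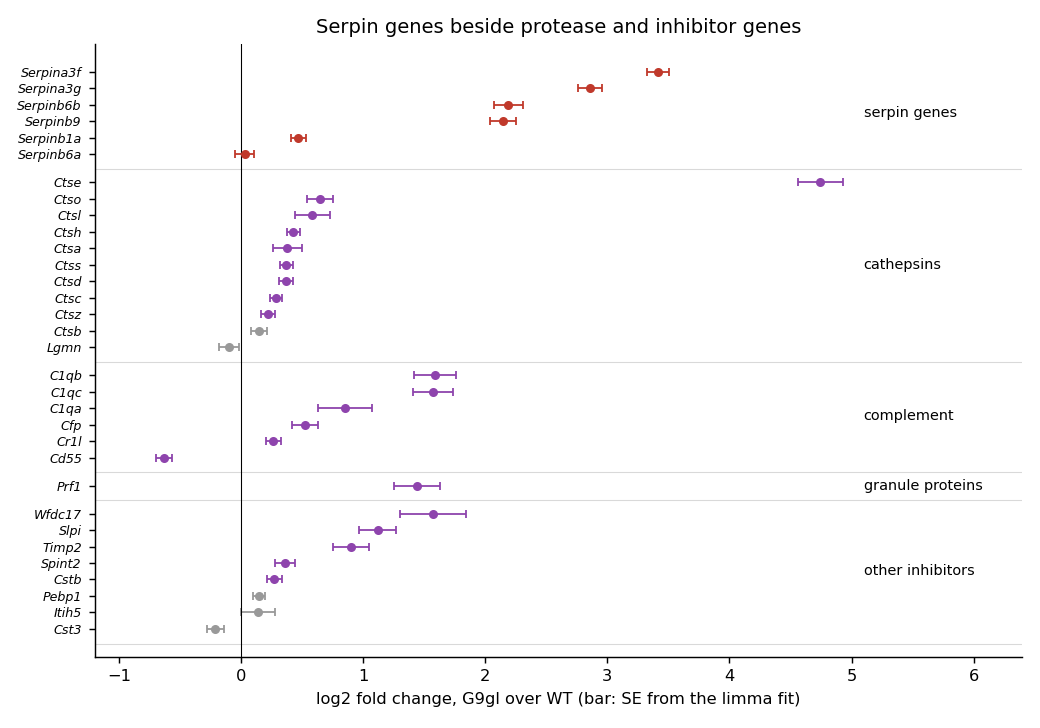
Log2 fold change of G9gl over WT, on log2(FPKM + 1), with its SE from the limma fit, for the 6 tested serpin genes (red) and the tested genes of 4 related lists (purple where called, grey where not). Ctse at 4.75 exceeds Serpina3f at 3.42, and the other cathepsin and inhibitor genes lie below Serpinb9 at 2.15.

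Most tested macrophage markers rose in the same G9gl libraries. Of 14 markers 11 were tested and 9 rose (C1qa, C1qb, C1qc, Csf1r, Hmox1, Lyz2, Slc40a1, Spic and Vcam1), where 11.8% of all tested genes rose and 11.6% fell. Their summed level was 60.7 to 67.7 FPKM in G9gl, against 23.3 to 31.2 FPKM in WT, over all 14 markers. Adgre1 and Cd68 did not pass, with Adgre1 at 3.37, 2.58 and 2.89 FPKM in G9gl, against 2.38, 2.33 and 2.55 FPKM in WT. None of the defining markers Adgre1, Csf1r and C1qa was at 0 in any library. C1qa, C1qb and C1qc are also on the complement list. Of 8 neutrophil markers in the files 2 were tested and S100a8 rose, with a summed level of 15.3 to 35.2 FPKM in G9gl, against 2.27 to 8.20 FPKM in WT. Dendritic cell markers summed to 7.12 to 7.93 FPKM in G9gl, against 2.26 to 4.08 FPKM in WT, with Cd209a and Zbtb46 higher among 3 tested of 7, where Zbtb46 reached the filter through the G9gl libraries alone. NK cell markers summed to 5.76 to 9.64 FPKM in G9gl, against 2.11 to 3.67 FPKM in WT, with Prf1 the 1 tested gene of 7. Prf1 alone had 8.10, 4.98 and 6.22 FPKM in G9gl, against 2.32, 1.28 and 1.60 FPKM in WT. For each other NK cell marker the groups overlapped or all values were 0. The defining marker Ncr1 was listed at 0 in G9gl replicate 2 and WT replicate 3. T cell markers summed to 7.19 to 8.29 FPKM in G9gl, against 4.18 to 7.08 FPKM in WT, with 0 called by limma of 3 tested. Plasma cell markers summed to 143 to 152 FPKM in G9gl, against 128 to 142 FPKM in WT, with Jchain and Sdc1 higher and Irf4 lower among 4 tested of 6, where Jchain likewise reached the filter through the G9gl libraries alone. The part of these cells in the serpin differences was not tested. In such bulk samples a difference in the number of cells of a type and a difference in RNA per cell cannot be told apart. B cell markers were abundant throughout, with Cd79a, a chain of the B cell receptor complex, at 2167 to 2300 FPKM in G9gl and 2408 to 2625 FPKM in WT, and Cd79a, Fcer2a, Ms4a1 and Pax5 fell. Of 6 marginal zone B cell markers Cr2, Cd1d1 and Dtx1 fell and S1pr3 rose. Red cell and platelet markers summed to 60.7 to 219.7 FPKM in G9gl, against 41.6 to 43.5 FPKM in WT, highest in G9gl replicate 1. That was also the highest library for Serpina3g, Serpinb1a, Serpinb6a and Serpinb6b, but not for Serpina3f or Serpinb9.

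The chromosomal surroundings of the serpin genes were compared through genes other than serpins whose start lies within 1 Mb. Around Serpina3g 9 such genes were tested, of which Ifi27, an interferon-induced gene, and Ddx24 rose and Dicer1 fell. The nearest of all 9 was Dicer1, 516 kb away, so no gene other than a serpin was tested closer to Serpina3g. Ddx24 was not called without G9gl replicate 2 or 3 or WT replicate 1 or 3, nor with each library rescaled to the same sum, and Dicer1 not without G9gl replicate 2 or WT replicate 2 or 3, nor without a filter. Ifi27 had 104 ± 5.80 FPKM in G9gl and 62.9 ± 0.965 FPKM in WT (SD, n = 3 each; limma adjusted p 5.4e-05). Around Serpinb9 4 neighbours were tested and 0 were called by limma, with 0 at an unadjusted p under 0.05. The nearest of the 4 lay 201 kb away, whereas Serpinb6b, with a similar log2 fold change, stood 38.0 kb from Serpinb9. Around Serpinb6a, Bphl rose and Pxdc1 fell among 8, but Pxdc1 was not called without a filter, nor without G9gl replicate 2 or 3 or WT replicate 1 or 2. Bphl, a hydrolase gene 34.8 kb from the start of Serpinb6a, had 19.2 ± 1.98 FPKM in G9gl and 11.8 ± 0.988 FPKM in WT (limma adjusted p 0.0014). Around Serping1, itself near 0, 4 of 12 rose and 1 fell, led by Ube2l6, a ubiquitin and ISG15 conjugating enzyme gene, with 57.5 ± 6.64 FPKM in G9gl and 34.6 ± 2.41 FPKM in WT (limma adjusted p 6.6e-04), and by Slc43a3. Over all 8 genes, 7 of 34 tested neighbours rose and 4 fell, that is 32.4% called, beside 23.4% of all tested genes.

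**Figure D5:**
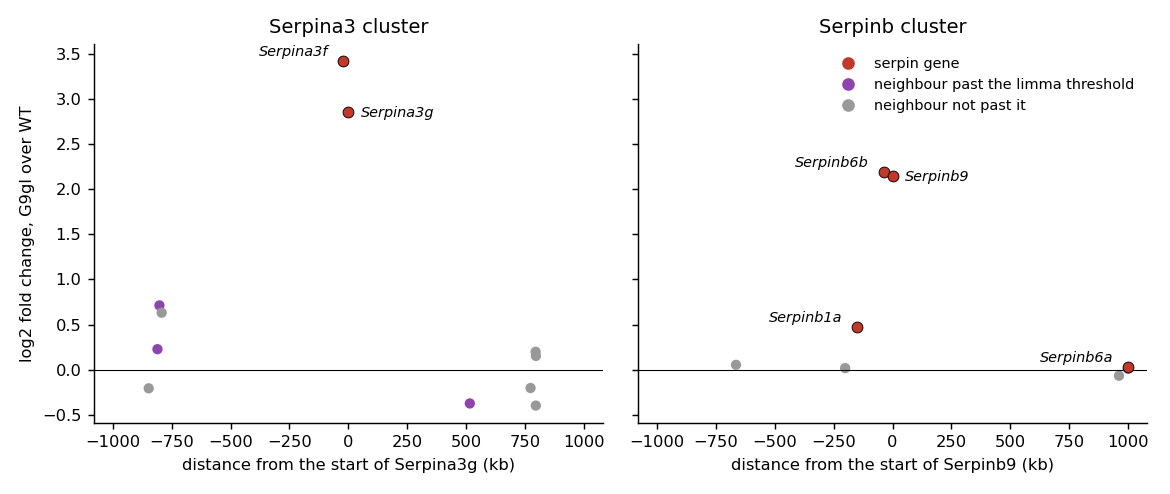
Log2 fold change of G9gl over WT, on log2(FPKM + 1), against distance in kb from the start of Serpina3g (left) and of Serpinb9 (right), for serpin genes (red) and other tested genes within 1 Mb (purple where called, grey where not). Serpina3f, Serpina3g, Serpinb6b and Serpinb9 stand at 2.15 to 3.42, Serpinb1a at 0.47 and Serpinb6a at 0.03, and the other genes lie between -0.40 (Snhg10) and 0.71 (Ifi27).

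Among 9462 other tested genes, those whose log2(FPKM + 1) followed each serpin gene most closely over the 6 libraries were found by Pearson's r. These 6 points share 2 genotypes, so any gene with a wide gap between them has a high r, and no test was made. For Serpina3g these were Marcksl1, Lpxn, Clybl, Grcc10 and Rgl1 (r from 0.997 to 0.999). For Serpina3f they were Lilrb4a, Rgl1, B2m, Marcksl1 and Glt28d2 (r from 0.998 to 0.9995). Glt28d2, with a mean of 0.148 FPKM in WT, reached the filter through the G9gl libraries alone, and Lilrb4a had a mean of 0.891 FPKM in WT. Rgl1, a Ral exchange factor gene, and Marcksl1 were thus near both copies. Serpinb6b was followed by Snrnp25, Rasgrp3, H2-Oa, Il9r and Ccdc17 (r from 0.997 to 0.9995) and Serpinb9 by Decr1, Il9r, Sh2d2a, Dennd5b and Snrnp25 (r from 0.997 to 0.999), so that Il9r, the interleukin-9 receptor gene, and Snrnp25 were on both lists. Serpinb1a was followed by the class II and class I genes H2-DMa and H2-D1 and by Ddt, Aph1a and Emc4 (r from 0.993 to 0.997). Serpinb6a, whose groups overlapped, was followed by Zfp608, Ffar1, L3mbtl3, Sf3b6 and Bola3 (r from 0.973 to 0.995). Among the serpin genes themselves r was 0.996 for Serpina3f with Serpina3g and 0.997 for Serpinb6b with Serpinb9. It was nearly as high, 0.989 to 0.994, for a Serpina3 gene with Serpinb6b or Serpinb9, which lie on another chromosome. For Serpinb1a with these genes r was 0.942 to 0.97, and for Serpinb6a with the others it was 0.368 to 0.577.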

How the data were processed

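RNA sequencing libraries of sorted splenic follicular B cells (3 G9gl, 3 WT) were made from total RNA with a SMART-Seq HT kit and a Nextera kit, per the labels' protocols. Such libraries keep no strand. The submitters' processing notes name Cufflinks 2.2.1, TopHat2 2.0.13, SAMtools 0.1.19 and Bowtie2 2.2.3, and build mm10. What the authors deposited is 1 FPKM value per symbol and library, a unit inferred from those tools and the values. Annotation, filters and any scaling of libraries to each other are not stated there.

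FPKM sums were 657759 to 671533 in G9gl and 603054 to 611557 in WT, so the sum was higher in G9gl. Depth was estimated from the FPKM steps of genes with 1 annotated transcript of at least 1500 bases, of which 76.0 to 81.7% of values of a few fragments fell within 0.1 of a whole fragment. No pair of libraries shared more than 2 identical values above 0.

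In R 4.3.3, limma 3.58.1 was fitted to log2(FPKM + 1) by genotype alone, with its trend option, for genes that reached 1 FPKM in 3 or more of 6 libraries, with p-values adjusted by Benjamini-Hochberg across every gene tested. The fit was tested on simulated data with known changes. Fold changes of low genes are understated on this scale. Alternatives were another pseudocount, other filters, quantile normalization, a rescaling of each library to a sum of 1000000, a replicate block, near copies summed, and leaving out each library.

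The members and lists were chosen with earlier results of these data known. Named genes were all members, all other tested serpin genes, up to 6 tested genes with the smallest p per list, up to 4 called neighbours, called and defining markers, and 5 genes by likeness per member, leaving out predicted genes, Riken clones, small RNA and immunoglobulin genes. Genes named beyond this complete a small count, and were chosen after their values were seen. Positions, neighbours and transcripts came from GENCODE vM21 (GRCm38, the assembly of mm10), where transcript alignments and shared stretches of 50 bases stand in place of the planned protein comparison. Promoters came from RefSeq (GRCm38.p6), with 6 of 8 members matched.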

Additional observations from a re-analysis of the deposited data

How the results depend on the processing

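For the serpin genes, which were chosen on this contrast, the calls are a description and no support: 5 were called higher and 0 lower under every alternative run that kept them as separate genes. Of 190 counts recomputed under the alternatives, 170 stayed within 1.5 times the reported count. These include counts of 0 that stayed at 0 and the calls of the serpin genes themselves, so they say less about the other counts. Of 74 recomputed log2 fold changes of single serpin genes, 67 moved by less than 1 SD between libraries. The other filters and the replicate block cannot change the log2 fold change of a gene, so part of this count was fixed in advance. With a pseudocount of 0.1 the log2 fold changes were 3.69 for Serpina3f, 2.81 for Serpinb6b and 2.69 for Serpinb9, as that scale compresses low genes less.

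Rescaling each library to the same sum moved the median of all tested genes to -0.12 and gave 763 genes called higher and 2495 lower, against 1191 and 1174 as reported. It also gave 1 other serpin gene lower (Serpinb7), 1 granule protease gene lower (Gzmm), 3 other protease inhibitor genes higher and 1 lower, and 9 neighbours lower. Without a filter on low values 2 other serpin genes and 2 granule genes (Prf1 and Mcpt8) were higher and 0 neighbours lower. With a filter of 5 FPKM 3 other inhibitor genes were higher, since fewer were tested, and after quantile normalization 1 was lower. Where no reason is given here, the cause was not tested.

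With 1 library left out, 793 to 1076 genes were called higher and 689 to 1175 lower, 0 to 1 other serpin genes lower, 0 to 1 other inhibitor genes lower and 0 to 3 neighbours lower. The lowest counts came without G9gl replicate 2 (793 higher) and without WT replicate 2 (689 lower, and 0 neighbours lower).

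The libraries share replicate numbers, but equal numbers did not deviate together (r of 0.099, -0.069 and 0.021 for numbers 1, 2 and 3), and G9gl replicate 2 correlated best with WT replicate 3. With the replicate block 1044 genes were called higher and 988 lower, 5 serpin genes higher, and 7 cathepsin genes higher. Depth limits Serpinb8, Serping1 and the other serpin genes under 1 FPKM.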
